A study of Mus musculus with 6 samples.

Results

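Ptx3 and the genes that build, bind and degrade the hyaluronan matrix were followed across 6 stably transfected clones of NIH3T3, a mouse fibroblast line that was immortalized from embryos of strain NIH Swiss. The set held 9 genes, namely Ptx3, Tnfaip6, Has1, Has2, Has3, Cd44, Hyal1, Hyal2 and Hmmr, and every array probe that the platform annotation gives to one of them was taken. This found 19 probes of 7 genes among 45281 probes and 19057 named genes on the array. No probe was assigned to Tnfaip6 or Has3, so the transcript levels of these 2 genes are not reported here. The clones FEAT-3, FEAT-15 and FEAT-20 expressed the coding sequence of human FEAT, a methyltransferase also known as METTL13, in the vector pEF-DEST51 under the promoter of elongation factor 1alpha, and were picked as colonies for high FEAT protein after 7 days in 10 µg/ml blasticidin S. The clones ΔccdB-1, ΔccdB-2 and ΔccdB-3 were control lines stably transfected with the same vector without its ccdB gene. Each clone is 1 line grown from a transfected cell or colony and was measured on 1 array, so a difference between the groups includes differences between clones, and the 3 arrays per group limit the precision of every value.

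Hyaluronan is a long unbranched sugar polymer that hyaluronan synthases at the plasma membrane spin out from the nucleotide sugars UDP-glucuronate and UDP-N-acetylglucosamine. Outside the cell it is bound by receptors such as CD44 and is organised by proteins that cross-link it, among them TSG-6, the product of Tnfaip6, and the long pentraxin PTX3, a secreted pattern recognition protein. Hyaluronidases cut the polymer. PTX3, TSG-6 and hyaluronan together stabilise the matrix around the ovulated oocyte, and fibroblasts are known to secrete PTX3 in response to inflammatory cytokines.

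The set was proposed because Ptx3 was known to differ between the FEAT and ΔccdB clones. The values of the measured genes in this contrast are therefore given as a description. Calls of their probes by limma are counted below, and nothing is read from those counts. The promoters of the measured genes whose brightest probe lay above background on all arrays are shown first, as the 250 bases before the annotated start on the gene's own strand (RefSeq, GRCm38.p6), since these genes carry the values below. Promoters of 7 of the 9 genes were in the RefSeq table, and that of Has2 was not. Capitals mark matches, on either strand, to any of 7 motifs: AP-1 (TGANTCA), the TATA box (TATAAA), C/EBP (TTNNGNAA), Sp1 (GGGCGG), TEAD (GGAATG), the NF-kB consensus and the SRF CArG box.
Ptx3, chr3:66219637-66219886, plus strand: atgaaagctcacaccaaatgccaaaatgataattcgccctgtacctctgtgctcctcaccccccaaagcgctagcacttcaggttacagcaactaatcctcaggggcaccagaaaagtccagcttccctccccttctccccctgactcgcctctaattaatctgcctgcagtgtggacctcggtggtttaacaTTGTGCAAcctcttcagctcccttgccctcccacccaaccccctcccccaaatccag
Cd44, chr2:102901666-102901915, minus strand: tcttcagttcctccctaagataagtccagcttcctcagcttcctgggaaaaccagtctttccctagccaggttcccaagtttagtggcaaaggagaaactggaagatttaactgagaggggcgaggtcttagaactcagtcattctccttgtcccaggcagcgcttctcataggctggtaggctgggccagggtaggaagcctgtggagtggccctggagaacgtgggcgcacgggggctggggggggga
Hyal1, chr9:107576700-107576949, plus strand: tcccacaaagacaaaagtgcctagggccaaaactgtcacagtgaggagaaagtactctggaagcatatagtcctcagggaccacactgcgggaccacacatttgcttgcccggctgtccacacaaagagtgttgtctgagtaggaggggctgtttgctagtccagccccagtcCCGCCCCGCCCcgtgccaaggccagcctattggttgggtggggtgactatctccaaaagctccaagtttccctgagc
Hyal2, chr9:107568913-107569162, plus strand: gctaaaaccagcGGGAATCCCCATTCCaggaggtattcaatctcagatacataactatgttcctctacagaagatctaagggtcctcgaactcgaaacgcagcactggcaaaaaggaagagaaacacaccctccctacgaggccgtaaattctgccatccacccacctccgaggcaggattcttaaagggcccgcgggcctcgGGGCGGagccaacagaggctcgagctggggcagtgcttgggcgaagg

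The Ptx3 window held 1 match, a C/EBP match from 57 to 50 bases before the start, and a C/EBP match is present in 36.8% of the 32851 promoters of the same length in the table. The Cd44 window held no match to the 7 motifs. Hyal1 held 2 overlapping Sp1 matches between 77 and 67 bases before the start, and Hyal2 held 1 Sp1 match from 47 to 42 bases (32.7% of promoters hold one). In Hyal2 an NF-kB match (7.25% of promoters) shared a base with a TEAD match (12.6%) 229 bases before the start. AP-1, present in 6.75% of all promoters, was matched in 1 of the 7 member promoters, that of Tnfaip6, from 142 to 136 bases before the start. None of the 7 held the TATA box or the CArG box, which 12.4% and 1.47% of promoters hold.

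Ptx3 was measured by 2 probes, both above background on all 6 arrays. The background limit of an array is the most frequent log2 intensity plus 3 SDs of the values below it, which came to intensities of 96.3 to 102. On the brighter probe (ILMN_2662802) the deposited intensity of Ptx3 was 1005 in ΔccdB-1, 1128 in ΔccdB-2 and 885 in ΔccdB-3, and 2927 in FEAT-3, 4551 in FEAT-15 and 3450 in FEAT-20. The lowest FEAT clone lay above the highest ΔccdB clone, and FEAT-15 was the highest of the 6. The group means were 1006 ± 122 and 3643 ± 829 (SD, n = 3 clones each), and the log2 difference, FEAT minus ΔccdB after normalization, was 1.83 with a standard error of 0.16, a 3.56-fold higher level. On the other Ptx3 probe (ILMN_2662803) the intensities were 814, 969 and 614 in the ΔccdB clones and 2171, 3585 and 2663 in the FEAT clones, in the same order of clones. Its log2 difference was 1.81 (SE 0.20). RNA came from whole cultures, so more transcript per cell and more cells with the transcript cannot be told apart. With any 1 clone left out, the difference of the brighter probe stayed between 1.70, without FEAT-15, and 1.95, without ΔccdB-2. In the plot of intensities by clone, Ptx3 is the one bright gene of the set whose groups stand apart.

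**Figure D1:**
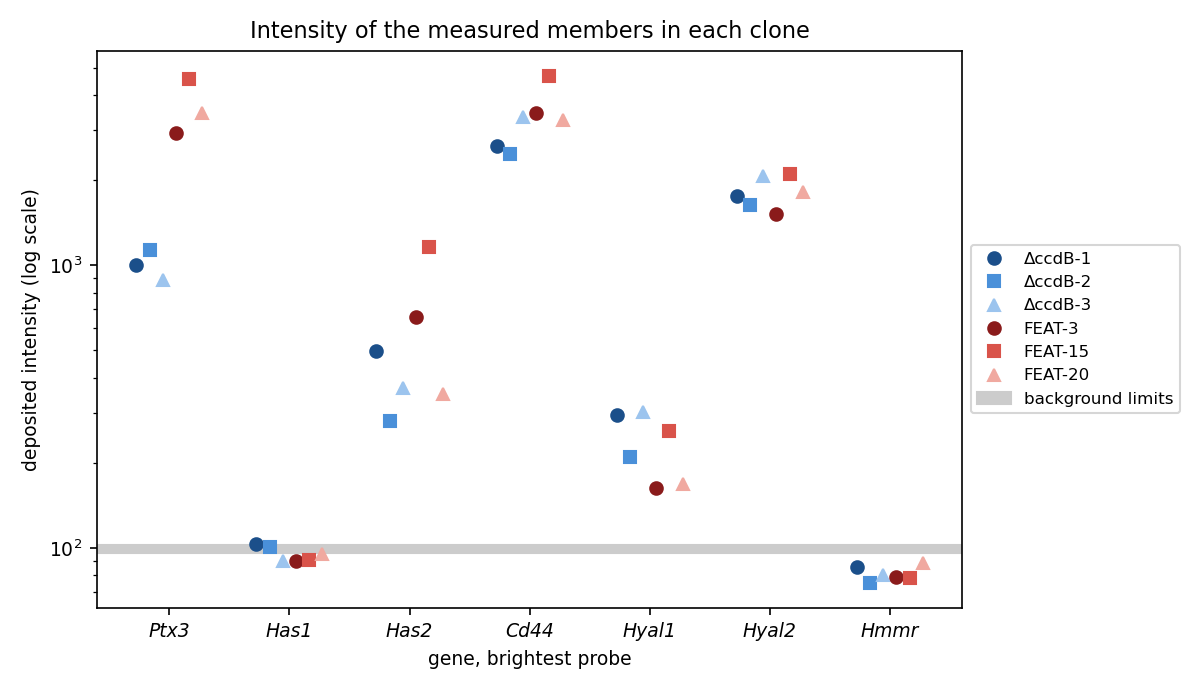
Deposited intensity (vertical axis, log scale) of the brightest probe of each of the 7 measured genes, with 1 point per clone (ΔccdB clones in blue, FEAT clones in red) and the background limits of the arrays, 96.3 to 102, as a grey band. The 3 FEAT clones lie above the 3 ΔccdB clones for Ptx3, the groups overlap for Has2, Cd44, Hyal1 and Hyal2, Has1 lies in or near the band, and Hmmr lies below it.

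Among the 16 member probes bright enough to enter the fit over all 27169 probes (the top 60% by mean), 2 probes, both of Ptx3, passed limma's test at an adjusted p under 0.05, higher in FEAT clones, and 0 passed as lower. Over all probes tested, 0.118% were called higher and 0.0663% lower. Without ΔccdB-1, 0 probes were called, so the Ptx3 probes did not pass either. With 1 probe per gene, Ptx3 was 1 member gene with no overlap between the groups and a higher level in FEAT clones, and Has1 was 1 with a lower level. Over the 13315 genes tested these shares were 7.95% and 7.24%. Ptx3 was chosen on this contrast, so nothing is read from these counts. Of the 8517 genes above background on all arrays, 5 had a larger log2 difference toward FEAT than Ptx3.

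The hyaluronan synthases were measured by 3 probes. Has2, the main hyaluronan synthase of fibroblasts and embryonic mesenchyme, had 1 probe (ILMN_1254975), above background on all arrays. Its intensity was 498 in ΔccdB-1, 281 in ΔccdB-2 and 368 in ΔccdB-3, and 658 in FEAT-3, 1155 in FEAT-15 and 351 in FEAT-20. FEAT-15 and FEAT-3 were the highest of the 6 clones, whereas FEAT-20 lay between ΔccdB-2 and ΔccdB-3, so the groups overlapped. The log2 difference was 0.81 (SE 0.38), and it was 0.41 without FEAT-15 and 1.35 without FEAT-20. The SD within groups was 0.74, close to the difference. The FEAT clones were widely spread: the highest was 3.29 times the lowest in intensity, and the SD of log2 values among the FEAT clones was 0.97. Among the 8517 genes above background on all arrays, 0.34% had a larger SD among the FEAT clones, and the median SD was 0.145. In the ΔccdB clones the SD of Has2 was 0.40, and 5.82% of genes had a larger one.

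Has1, a synthase that many fibroblasts express at low levels, was near background. Its brighter probe read 103, 100.4 and 89.9 in ΔccdB-1, ΔccdB-2 and ΔccdB-3 and 89.8, 90.7 and 95.0 in FEAT-3, FEAT-15 and FEAT-20. It was above the background limit in ΔccdB-1 and ΔccdB-2 only. The deposited intensities overlapped, although the normalized values of the FEAT clones were all below those of the ΔccdB clones, with a log2 difference of -0.21 (SE 0.13) that was -0.12 with the deposited value table. The other Has1 probe was at 69.6 to 76.4 on all arrays, below background, and fell short of the filter. At this signal the log2 difference of Has1 is not read as a change in its level.

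Cd44, the main cell surface receptor for hyaluronan, was covered by 9 probes, of which 4 were above background on all arrays, 2 on some and 3 on none. The brightest (ILMN_1223697) read 2638, 2466 and 3336 in ΔccdB-1, ΔccdB-2 and ΔccdB-3 and 3464, 4667 and 3256 in FEAT-3, FEAT-15 and FEAT-20. FEAT-15 and FEAT-3 were again the highest clones and FEAT-20 lay just below ΔccdB-3, so the groups overlapped. The log2 difference was 0.38 (SE 0.18). The next Cd44 probe (ILMN_3114585) read 1581, 1612 and 2276 against 2145, 2938 and 1881, with a log2 difference of 0.30 (SE 0.21). The dimmer Cd44 probes above background on all arrays differed by 0.27 and 0.06. A dim Cd44 probe (ILMN_2730266), above background on all 3 ΔccdB arrays but on 1 FEAT array, went the other way, at 104, 103 and 106 against 93.2, 101 and 91.8, a log2 difference of -0.27 (SE 0.14). CD44 transcripts are known to be alternatively spliced, and which variants each probe reads was not tested.

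**Figure D2:**
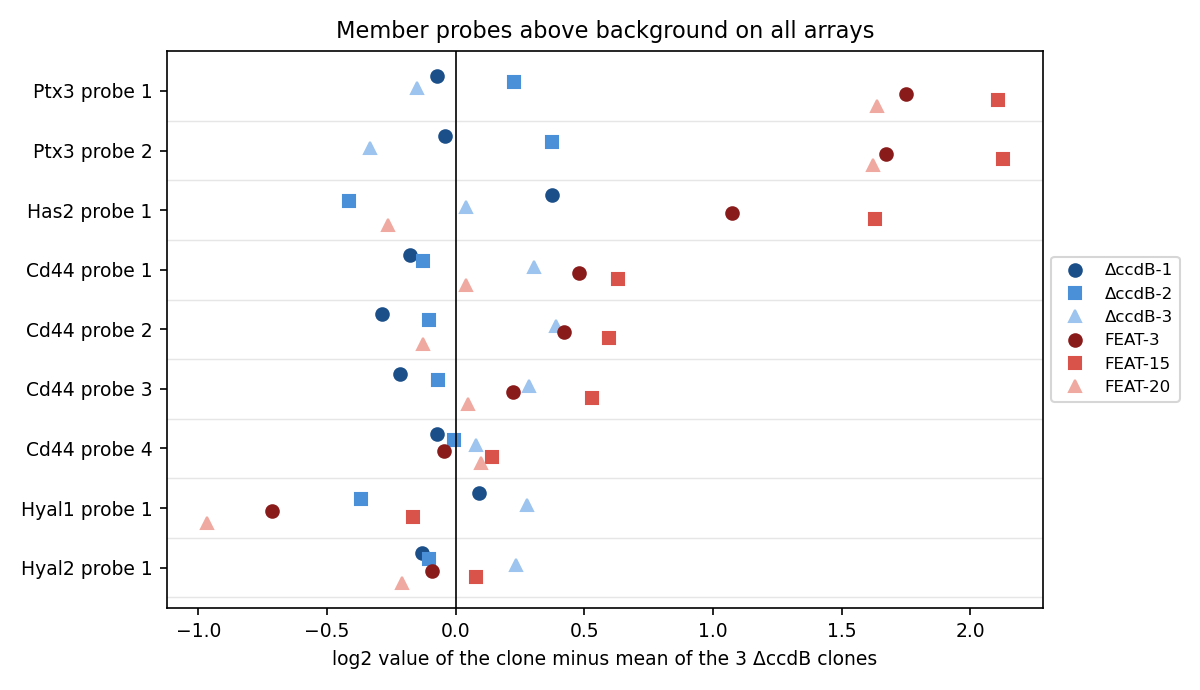
Log2 value of each clone minus the mean of the 3 ΔccdB clones (horizontal axis) for the 9 member probes above background on all arrays, with 1 point per clone and probes numbered by brightness within a gene. Both Ptx3 probes put all 3 FEAT clones between 1.62 and 2.13, while for Has2 FEAT-3 and FEAT-15 lie at 1.08 and 1.63 and FEAT-20 at -0.26.

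The plot of clones against the ΔccdB mean shows how unevenly the FEAT clones shared these values. In FEAT-3 and FEAT-15, Ptx3 was 1.75 and 2.11 above the ΔccdB mean on the log2 scale, Has2 1.08 and 1.63, and Cd44 0.48 and 0.63. In FEAT-20, Ptx3 was 1.64 above, but Has2 was at -0.26 and Cd44 at 0.04. Among the ΔccdB clones, ΔccdB-2 was the highest for Ptx3, at 0.23, and the lowest for Has2, at -0.42.

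The hyaluronidases were measured by 3 probes. Hyal1, a lysosomal hyaluronidase, read 296 in ΔccdB-1, 209 in ΔccdB-2 and 303 in ΔccdB-3, and 163 in FEAT-3, 258 in FEAT-15 and 168 in FEAT-20 on its brighter probe (ILMN_2644375). FEAT-3 and FEAT-20 were the lowest clones, and FEAT-15 lay inside the range of the ΔccdB clones, so the groups overlapped. The log2 difference was -0.62 (SE 0.22), between -0.84 without FEAT-15 and -0.44 without FEAT-20, and -0.35 as the mean of both Hyal1 probes. The other Hyal1 probe was above background on 2 of 6 arrays, with 98.7, 91.6 and 98.7 against 81.2, 109 and 101. Hyal2, a hyaluronidase anchored at the cell surface, read 1763, 1630 and 2066 in the ΔccdB clones and 1520, 2094 and 1809 in FEAT-3, FEAT-15 and FEAT-20. Its groups overlapped, with a log2 difference of -0.07 (SE 0.15), and among the ΔccdB and the FEAT clones its log2 SD was 0.20 and 0.14.

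Hmmr encodes RHAMM, a protein that binds hyaluronan and, inside dividing cells, the mitotic spindle. Neither Hmmr probe was above background on any array. The brighter one read 85.6, 75.4 and 80.1 in ΔccdB-1, ΔccdB-2 and ΔccdB-3 and 78.9, 78.4 and 88.4 in FEAT-3, FEAT-15 and FEAT-20, and the other lay between 61.2 and 74.6. In the same clones, the list of Hmmr's spindle partners and mitotic genes had 11 genes tested, 10 of them above background on all arrays. The topoisomerase gene Top2a read 3369 ± 242 in ΔccdB and 3249 ± 417 in FEAT clones, and the mitotic kinase gene Aurka 3278 ± 34.8 and 3005 ± 363 (SD, n = 3 each). Whether the Hmmr probes can read their transcript was not tested. Another Top2a probe differed by -0.45 (limma, adjusted p = 0.324). The median log2 difference of the list was 0.05, and 0 of its genes were called by limma, with 0 at an unadjusted p under 0.05 on their brightest probe, a level that 10.1% of all genes tested reached.

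Other genes of the pathway were taken as 8 lists that hold none of the 9 genes. Of 136 listed genes, 120 had a probe and 86 were tested on their brightest probe, and 2 of these rose and 1 fell at limma's adjusted p under 0.05. Over all 13315 genes tested, 0.135% rose and 0.0901% fell. The median log2 difference of the list genes was 0.07, against 0.01 over all genes. The lists were chosen with earlier results of these data known. Nothing is therefore read from the counts or signs of their genes, here or below.

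**Figure D3:**
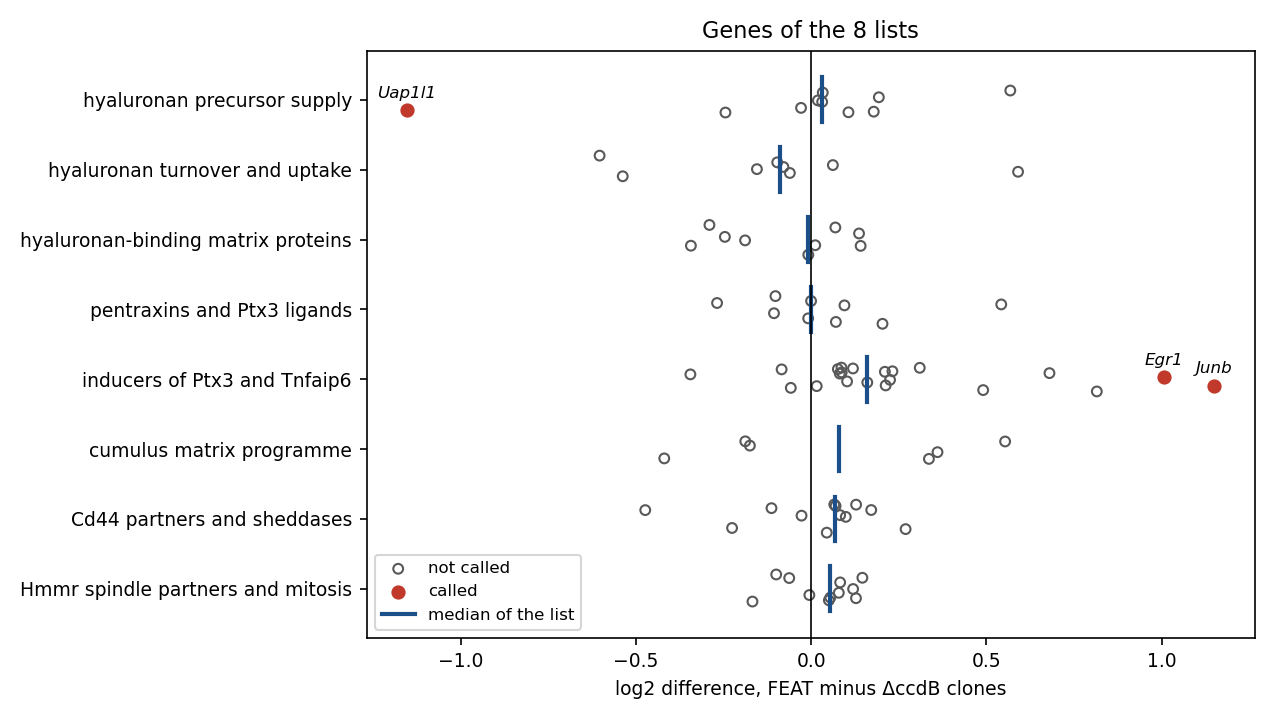
Log2 difference, FEAT minus ΔccdB clones (horizontal axis), of the tested genes of each of the 8 lists, with 1 point per gene on its brightest probe, filled where limma's adjusted p was under 0.05, and the median of the list as a blue bar. Egr1 and Junb lie at 1.01 and 1.15 and Uap1l1 at -1.15, and the list medians lie between -0.09 and 0.16.

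Both genes that rose belong to the list named for inducers of Ptx3 and Tnfaip6. It holds cytokines, receptors and transcription factors, and also the inhibitors Il1rn, Nfkbia and Tnfaip3. Il1a, Il1b, Tnf, Nfkb1 and Fosl1 are on this list but were not among its tested genes. Junb, an AP-1 subunit, read 835, 877 and 780 in ΔccdB-1, ΔccdB-2 and ΔccdB-3 and 1979, 1871 and 1759 in FEAT-3, FEAT-15 and FEAT-20, a 2.22-fold rise (log2 1.15, SE 0.16, adjusted p = 0.0211). Egr1, an early response transcription factor, rose 2.01-fold (log2 1.01, SE 0.15, adjusted p = 0.0237), with 4444, 4500 and 4972 against 8310, 8828 and 11721. No FEAT clone overlapped a ΔccdB clone for either gene. These calls depended on the clones included: none of the list genes was called without ΔccdB-1, without ΔccdB-3 or without FEAT-3, and without FEAT-20 Egr1 was not called and Osmr was.

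In the same list, 18 of 21 tested genes had a positive difference, with a median of 0.16, and 4 had an unadjusted p under 0.05. The positive differences include those of the inhibitors Il1rn (0.09), Nfkbia (0.22) and Tnfaip3 (0.49), so the count is not one of inducers alone. Over all genes tested, 6874 of 13315 differences were positive. Jun, the AP-1 subunit that pairs with Fos, differed by 0.68 (SE 0.13, adjusted p = 0.0995), with 699, 672 and 709 against 1031, 1079 and 1287. Osmr, the receptor of oncostatin M, differed by 0.81 (SE 0.21, adjusted p = 0.225), and its other tested probe stayed below background on all arrays. Neither Jun nor Osmr passed here, although Jun was called when the deposited value table was used.

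The list of hyaluronan precursor supply holds 16 genes, mostly of enzymes on the routes to UDP-glucuronate and UDP-N-acetylglucosamine. Ugdh, for the step from UDP-glucose to UDP-glucuronate, was not tested, nor were Gnpnat1, Hk2, Gpi1, Pgm2 and Uxs1. The tested genes thus cover the routes in part. Of 10 genes tested, 0 rose and 1 fell. That gene was Uap1l1, a relative of the pyrophosphorylase that makes UDP-N-acetylglucosamine, which read 8717, 6548 and 6179 in the ΔccdB clones and 2783, 2991 and 4227 in FEAT-3, FEAT-15 and FEAT-20 (log2 -1.15, SE 0.15, limma adjusted p = 0.0192). All 3 FEAT clones were below all ΔccdB clones. Ugp2, which makes UDP-glucose, the precursor of UDP-glucuronate, read 902, 1171 and 815 against 1406, 1438 and 1492, a log2 difference of 0.57 (SE 0.17) that did not pass (adjusted p = 0.308). The hexokinase gene Hk1 differed by -0.24, and by -0.37 on its other tested probe (limma, adjusted p = 0.397). The sugar nucleotide transporter gene Slc35d1, not above background on any array, read 87.6 ± 4.86 and 96.1 ± 4.61 (SD, n = 3 each). The list's median was 0.03.

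In hyaluronan turnover and uptake, 8 genes were tested and 0 were called in either direction by limma, with 3 at an unadjusted p under 0.05. Hexa, a lysosomal hexosaminidase subunit that removes end sugars from hyaluronan fragments, read 3453, 2376 and 3017 in ΔccdB-1, ΔccdB-2 and ΔccdB-3 and 1813, 2418 and 2099 in FEAT-3, FEAT-15 and FEAT-20 (log2 -0.54, SE 0.15, adjusted p = 0.248). Layn, the hyaluronan receptor layilin, differed by -0.60 (SE 0.18, adjusted p = 0.282), from 684 ± 85.4 to 490 ± 141. Cemip2, a hyaluronidase of the cell surface, differed by 0.59 (SE 0.18, adjusted p = 0.308), from 429 ± 80.1 to 653 ± 154, and by 0.36 on each of its other tested probes. Cemip, a protein needed for hyaluronan degradation in fibroblasts, read 211 ± 58.5 and 191 ± 14.3 (SD, n = 3 clones each).

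Proteins that bind hyaluronan in the matrix were mostly dim. Of 9 genes tested, 3 were above background on all arrays and 4 on none, and 0 were called by limma, with 1 at an unadjusted p under 0.05. That gene, Itih3, a heavy chain of the inter-alpha-trypsin inhibitor family, was above background in 1 of 6 clones. Hapln3, a link protein, was not above background on any array. C1qbp, a mainly mitochondrial protein also named hyaluronan-binding protein, read 7665 ± 517 and 6801 ± 524, and Habp4 182 ± 33.3 and 160 ± 6.56 (SD, n = 3 each), with log2 differences of -0.19 and -0.25. The list's median was -0.01.

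Pentraxins and known ligands of PTX3 gave 9 tested genes, with 0 called by limma and 1 at an unadjusted p under 0.05. That gene was Fn1, which encodes the matrix protein fibronectin. It read 4760, 4838 and 5580 in ΔccdB-1, ΔccdB-2 and ΔccdB-3 and 6861, 8779 and 6963 in FEAT-3, FEAT-15 and FEAT-20, with no overlap and the highest value in FEAT-15. Its log2 difference was 0.54 (SE 0.15, adjusted p = 0.268), and its other probes gave 0.59, 0.62 and 0.57, none of which passed. Nptxr, the neuronal pentraxin receptor, was above background on 3 of 6 arrays, and the complement gene C1qa and the Fc receptor gene Fcgr2b on none.

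The cumulus matrix programme, the genes that act with Ptx3 and Has2 around the oocyte, had 6 genes tested, 0 called by limma and 2 at an unadjusted p under 0.05. Adamts1, a protease that cuts versican, read 332, 291 and 260 against 288, 485 and 545 in FEAT-3, FEAT-15 and FEAT-20, where FEAT-3 lay inside the ΔccdB range, although after normalization all 3 FEAT clones were above the ΔccdB clones (log2 0.55, SE 0.18, adjusted p = 0.342). Its next probe differed by 0.37. Ptgs2, the inducible cyclooxygenase, read 90.05, 89.3 and 98.1 against 107, 111 and 111, just above the background limit in the FEAT clones and in 1 ΔccdB clone. The EGF receptor gene Egfr differed by 0.34 on its brightest probe and by 0.61 on 2 others (adjusted p = 0.597, 0.248 and 0.161), with 0.36 and 0.09 on the rest. Gdf9, an oocyte growth factor, read 122 ± 3.42 and 114 ± 5.37 (SD, n = 3 each).

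Among Cd44's partners and the proteases that shed it, 12 genes were tested, 0 were called by limma and 1 had an unadjusted p under 0.05. That gene was Mmp14, a membrane-bound matrix protease that can cut CD44, at 4581, 4605 and 4588 in the ΔccdB clones and 2485, 3318 and 4720 in FEAT-3, FEAT-15 and FEAT-20. In deposited intensity the ΔccdB clones were nearly equal and FEAT-20 lay above them, whereas after normalization all 3 FEAT clones were below the ΔccdB clones (log2 -0.47, SE 0.16, adjusted p = 0.394). Tiam1, a Rac exchange factor that binds CD44, read 754 ± 110 and 928 ± 99.1 (SD, n = 3 each), and Nf2 and Adam10 were not above background on any array.

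The 5 genes whose levels were most like those of Ptx3 were taken from the 41 other genes with a log2 difference of at least 1, by Pearson's r with the brighter Ptx3 probe over the 6 clones. They were Smad6, an inhibitor of BMP signalling (r = 0.973), Fgf7, the keratinocyte growth factor (0.971), Amhr2, the receptor of anti-Müllerian hormone (0.970), Ccn5, a matricellular protein (0.958), and Junb (0.953). With 3 clones in each group and all 5 higher in the FEAT clones, most of each r comes from the group difference itself. Fgf7 was 3201, 2643 and 1882 in ΔccdB-1, ΔccdB-2 and ΔccdB-3 and 5119, 7752 and 6846 in FEAT-3, FEAT-15 and FEAT-20, and like Ptx3 it was lowest in ΔccdB-3 and highest in FEAT-15. Ccn5 read 440, 528 and 230 against 1254, 2029 and 1170, in the same order of clones as Ptx3 within the ΔccdB group, with FEAT-15 highest. Smad6 read 299, 297 and 313 against 572, 697 and 588, so among the ΔccdB clones it was highest where Ptx3 was lowest. Junb was highest in FEAT-3 and Amhr2 in FEAT-20. As the genes were picked for their likeness to Ptx3 over these clones, nothing is read from a shared order. Amhr2 was dim, at 105, 107 and 94.3 against 138, 195 and 200, and above background on 5 of the 6 arrays. Its ΔccdB values lay near the background limit, where normalization spreads values on the log2 scale. The other tested probe of Amhr2 differed by 0.09.

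Across the series, array means ranged from 616 to 735 and 36.9% to 39.8% of probes lay above background. All 5 probes of Eef1aknmt, the mouse counterpart of FEAT, were tested and 0 passed limma's adjusted p of 0.05, with log2 differences from -0.59 to 0.03. The insert was human, so these probes give no check of the transgene. All 10 fibroblast markers, among them Col1a1, Thy1 and Pdgfra, were above background on all arrays. Their summed deposited intensity was 41420 to 44110 in ΔccdB and 44760 to 55120 in FEAT clones, without overlap. The marker sums were not normalized between arrays, and how often sums of other genes stand apart was not computed. Of the markers of macrophages and other myeloid cells, which are known to make PTX3 and TSG-6, 5 of 7 with a probe were above background on no array (Adgre1, Csf1r, Fcgr1, Itgam and Ptprc) and Cd14 and Lyz2 on all. The summed intensity of these myeloid markers was 1319 to 1668 in ΔccdB and 1170 to 1567 in FEAT clones. Of the endothelial, epithelial and adipocyte markers, 4 of 5, 4 of 5 and 4 of 4 were above background on no array, and the epithelial marker Cdh1 was above it on all. Of 3 mesothelial markers with a probe, Msln was above background on all arrays. The sum of the 3 was 481 to 593 in ΔccdB and 339 to 464 in FEAT clones, also without overlap. The part of these markers in the results was not tested.

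**Figure D4:**
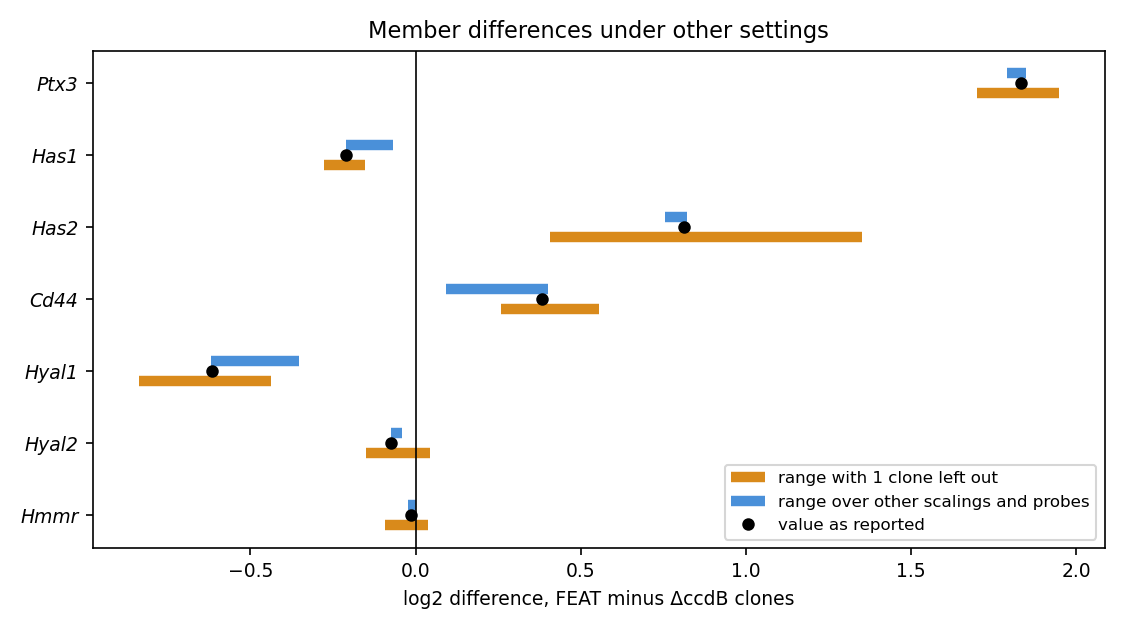
Log2 difference, FEAT minus ΔccdB clones (horizontal axis), of the brightest probe of each gene as reported (black), over 5 other scalings or probe choices (blue bar, lowest to highest) and with each of the 6 clones left out in turn (orange bar). Ptx3 stays between 1.70 and 1.95, Has2 ranges from 0.41 to 1.35, and the orange bar of Hyal2 and both bars of Hmmr cross 0.

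The plot of member differences under other settings shows which values rest on the clones and which on the probe. Ptx3 moved least relative to its size. Has2 moved with the clones, over a range of 0.41 to 1.35, but little with the scaling, 0.76 to 0.82. Cd44 moved most with the probe choice, since the mean of its 9 probes, the dim ones included, was 0.09. Hyal1 kept a negative difference in all of these settings, and Hyal2 and Hmmr did not keep 1 sign.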

How the data were processed

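Total RNA of each clone was purified on RNeasy columns, amplified and labelled with the Illumina TotalPrep kit (Cy3) and hybridised to 1 bead array, per the labels' protocols. The submitters' processing notes name BeadStudio without a version. The deposited files held linear intensities, 45281 per array, with the background still in (lowest values 50.1 to 53.1) and no detection p. The series' own deposited table held these intensities times 1 factor per array (0.925 to 1.10), which made all array means 680.

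With R 4.3.3 and limma 3.58.1, normexp was fitted to the signals (offset 16), followed by quantile normalization and log2. The top 60% of probes by mean (27169) were tested with lmFit and eBayes, two-sided, with Benjamini-Hochberg adjustment over all of them. An exact permutation test of 3 against 3 cannot go below p = 0.1 and was not used. Log2 differences and folds come from normalized values, intensities are as deposited, and overlap between groups was read on normalized values. Normexp spreads dim probes on the log2 scale. The clones are separate lines, so the tests set each group difference against the spread between clones. limma's eBayes moderates that spread with the variances of all probes tested.

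The genes and lists were chosen with earlier results of these data known. The text names all 9 genes, up to 4 genes per list with the smallest unadjusted p and every called one, and the 5 genes most like Ptx3. Outside this rule, Btc and the neighbours of Hyal1 were named after their values were seen. Il1rn, Nfkbia and Tnfaip3 were named as inhibitors on the inducer list, and some list genes as not tested. Gene names came from the platform annotation and RefSeq (GRCm38.p6): 34885 probes had 1 gene, 18 several and 10378 none.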

Additional observations from a re-analysis of the deposited data

How the results depend on the processing

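No paired analysis was run, because the numbers 1, 2, 3 and 3, 15, 20 name separate clones and give no pairs. A detection filter was planned for the case that the files gave a detection p, and was not run, since they give none. The count of called probes, 50, was 39 without normexp, 56 with the deposited value table, 38 with an offset of 50, 53 with median scaling, 51 with no filter, 40 with the top 40% of probes and 68 with a robust and trended variance. With 1 clone left out it ranged from 0 to 158: 0 without ΔccdB-1 (1934 probes at an unadjusted p under 0.05), 158 without ΔccdB-2, 10 without ΔccdB-3 and 18 without FEAT-3. Where any probe was called, the robust variance and the omissions also moved the share of higher calls, 64.0% as reported, to between 42.9% without FEAT-15 and 75.8% without FEAT-20. The count of list genes called, 3, was 3 or 4 in every scaling, filter, variance and probe setting and ranged from 0 to 3 with 1 clone left out. The Ptx3 difference, 1.83, ran from 1.79 to 1.85 over scalings and probe choice and from 1.70 to 1.95 over omissions. Of the other genes, Cd44 (0.09 over all its probes) and Has1 (-0.12 with the deposited table, -0.07 over both probes) moved by more than the SD between clones. The cause of the changes with the clones was not tested. Signal near background limits Has1, Hmmr and the dim Cd44 and Hyal1 probes.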

Other observations

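Hyal2, Hyal1 and Hyal3 lie in 1 stretch of mouse chromosome 9, with Naa80 between Hyal1 and Hyal3 in the RefSeq order of protein-coding genes. Hyal3, a hyaluronidase of the same family, was not above background on any array, at 72.7 to 86.6. Naa80, an actin acetyltransferase, read 309, 259 and 321 in ΔccdB-1, ΔccdB-2 and ΔccdB-3 and 207, 295 and 269 in FEAT-3, FEAT-15 and FEAT-20, with FEAT-3 the lowest clone. The next gene, Ifrd2, read 571, 571 and 548 against 466, 562 and 698. None of these groups stood apart.

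Btc, which encodes the EGF receptor ligand betacellulin of the cumulus list, varied more between clones than between groups. It read 188 in ΔccdB-1, 189 in ΔccdB-2 and 408 in ΔccdB-3, and 138 in FEAT-3, 498 in FEAT-15 and 122 in FEAT-20. The highest clone of each group stood well above the other two, and the SD of its log2 values was 0.81 in ΔccdB and 1.31 in FEAT clones (log2 difference -0.42, limma adjusted p = 0.864).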
